A study of Danio rerio with 24 samples.

Results

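The early response of the zebrafish jaw to dioxin was examined 2 h after the start of exposure, which was 1 h after its end. The comparison holds 6 of the 24 arrays of the series, 3 of TCDD and 3 of vehicle, chosen by their titles. AB zebrafish larvae were held in water with TCDD (2,3,7,8-tetrachlorodibenzo-p-dioxin) at 1 ng/ml or with 0.1% dimethyl sulfoxide (DMSO) as vehicle for 1 h from 96 h post fertilization (hpf), rinsed, and raised in clean fish water until sampling at 98 hpf. Each array carried RNA pooled from 10 jaws, here meaning heads cut in front of the pectoral fin and freed of eyes and brain, so a value is an average over many cell types and several larvae. The other 18 arrays are vehicle and TCDD jaws at 1, 4 and 12 h (97, 100 and 108 hpf), again 3 of each, from 3 independent time courses, and the small number of arrays limits the precision of every value. Levels below are log2 of the deposited Affymetrix intensities.

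TCDD acts through the aryl hydrocarbon receptor (AHR), a transcription factor that waits in the cytoplasm, enters the nucleus when it binds a ligand, pairs with ARNT and switches on genes that carry its binding sites. The best known of these encode cytochrome P450 enzymes of family 1, which oxidize foreign aromatic compounds, and TIPARP, which damps the receptor in mammals. In zebrafish the receptor Ahr2 mediates most TCDD toxicity, and the larval jaw, built of neural crest cartilage that needs Sox9 factors and endothelin signalling, is one of its best known targets. In RNA from whole jaws, fewer cells of a type and less RNA per cell cannot be told apart.

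The 6 arrays had median intensities of 34.2 to 34.9 with vehicle and 33.4 to 33.9 with TCDD, which did not overlap (exact two-sided permutation p of their log2 = 0.1, the smallest that 3 against 3 allows), and correlated with each other at r between 0.986 and 0.993 over 15502 probe sets. The first principal component (30.2% of the variance) separated TCDD from vehicle, with TCDD arrays at 7.18, 9.31 and 26.4 and vehicle arrays at -24.9, -13.0 and -4.99. The groups stood apart in an array control too. For the spiked-in dap control, 5′ signal less 3′ signal lay between -0.25 and -0.07 on vehicle arrays and between -0.61 and -0.48 on TCDD arrays (log2, exact two-sided permutation p = 0.1, the smallest that 3 against 3 allows). The same difference for gapdh overlapped between groups, at -1.64 to -1.48 with vehicle and -1.87 to -1.50 with TCDD (exact two-sided permutation p = 0.3). The part of these measures in the results below was not tested. Probe sets for fluorescent reporter proteins, which wild-type fish lack, lay between 1.94 and 2.36 on these arrays and serve as a guide to background.

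At 2 h, 14 probe sets differed between TCDD and vehicle jaws, 13 of them higher with TCDD and 1 lower (limma with Benjamini-Hochberg adjusted p under 0.05; 0.0903% of all probe sets in all, 0.0839% higher and 0.00645% lower). The 13 rises lay between 1.05 and 2.50 on the log2 scale, with a median of 1.35. Each was thus more than 2-fold in this fit. With an offset of 16 added before the log, bcor (0.99) and si:ch73-141c7.1 (0.52) were not. The 13 comprised genes of foreign compound metabolism (cyp1c1, sult6b1, cyb5a), a regulator of the receptor (tiparp) and signalling genes (edn1, cxcr4b, ccn2a, pik3r3b). The rest were regulators of transcription and of the cytoskeleton (bcor, cxxc5a, cdc42ep3), the uncharacterized gene si:ch73-141c7.1 and 1 unnamed probe set. The lower one belonged to pcdh18a. All 14 had groups that did not overlap, as had 11.5% of all probe sets. The fit draws the spread from all 24 arrays: on the 6 arrays of 2 h alone it called 0, with 1274 probe sets at an unadjusted p under 0.05. The count was 8 without vehicle replicate 2 and 148 (69 higher, 79 lower) with array weights, and cxcr4b, cyb5a, sult6b1, edn1, cyp1c1 and cdc42ep3 passed whichever 1 of the 6 arrays was left out. After dropping the arrays numbered 1, 2 or 3 at all times the counts were 1, 9 and 7, of which only 0, 1 and 5 were among the 14, and without the arrays numbered 1 those 6 genes did not pass either (limma adjusted p between 0.0647 and 0.232). Quantile normalization ended the calls of DrAffx.2.29.S1_at, si:ch73-141c7.1, pik3r3b and bcor (limma adjusted p between 0.113 and 0.39) and kept the other 10.

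**Figure D1:**
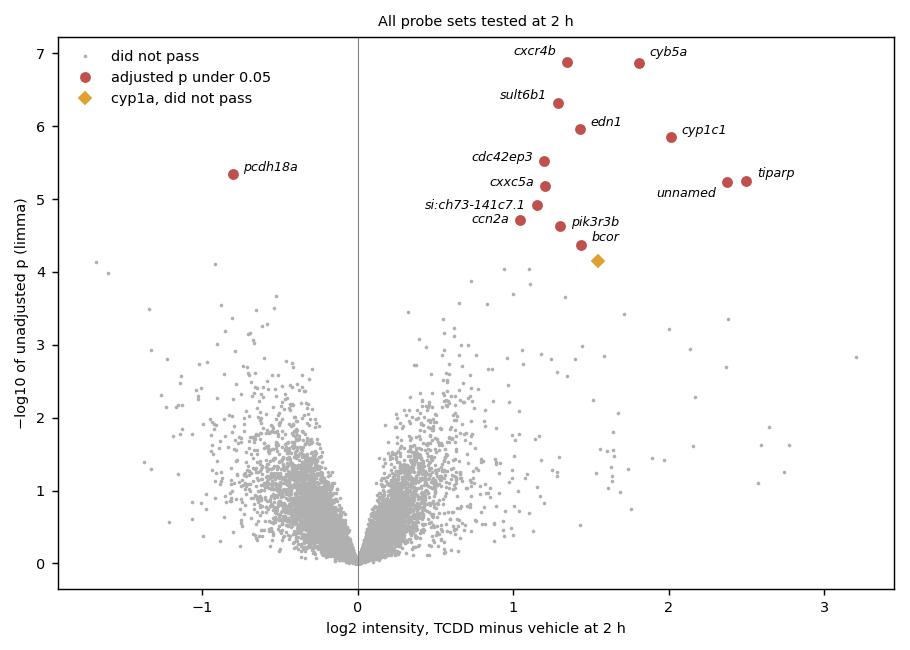
Difference between TCDD and vehicle at 2 h (horizontal axis, log2 intensity) against −log10 of the unadjusted p (vertical axis, limma) for all 15502 probe sets. The 14 probe sets past the threshold are red, 13 on the right and pcdh18a on the left, and cyp1a lies just below them.

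Genes of foreign compound metabolism, cyp1c1, sult6b1 and cyb5a, were among the rises. For cyp1c1 (probe set Dr.12329.1.A1_at), a family 1 cytochrome P450, vehicle replicates 1, 2 and 3 read 10.34, 9.77 and 10.21, and TCDD replicates read 12.46, 12.10 and 11.80. Every TCDD array was thus above every vehicle array, and the difference was 2.02 (SE 0.29, 4.04-fold, limma adjusted p = 0.00442). Another cyp1c1 probe set, DrAffx.2.87.S1_at, went from 6.62, 5.22 and 6.61 to 9.44, 8.94 and 8.29, also without overlap. Its difference of 2.74 had an SE of 1.34 and did not pass (limma adjusted p = 0.961). A further cyp1c1 probe set, DrAffx.2.87.A1_at, was near background at 1.93 to 3.32.

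Sulfotransferase and cytochrome b5 transcripts moved with cyp1c1. For sult6b1 (Dr.3583.1.S1_at), a cytosolic sulfotransferase that conjugates small molecules, vehicle arrays read 10.69, 10.27 and 10.93 and TCDD arrays 11.92, 11.89 and 11.94. The TCDD arrays lay closer to each other (SD 0.02, n = 3) than the vehicle arrays (SD 0.33, n = 3), the groups did not overlap, and the difference was 1.29 (SE 0.17, 2.44-fold, limma adjusted p = 0.00245). For cyb5a (Dr.5040.1.S1_at), cytochrome b5, which passes electrons to P450 enzymes in mammals, values went from 10.08, 9.64 and 9.91 to 11.71, 11.83 and 11.52. This difference of 1.81 (SE 0.22, 3.50-fold, limma adjusted p = 0.00105) came with no overlap and similar spread in both groups.

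The most widely used marker of AHR activity, cyp1a, did not pass at this time, although it passed at 1, 4 and 12 h. Its probe set (Dr.9478.1.S1_at) read 12.52, 11.92 and 12.25 with vehicle and 13.67, 13.84 and 13.82 with TCDD. The groups did not overlap, and the difference of 1.55 (SE 0.30, 95% confidence interval 0.91 to 2.18, 2.92-fold) gave a limma adjusted p of 0.0701. It passed in 4 of 18 alternative fits, over which the adjusted p ran from 0.0137 to 0.379. On the 6 arrays of 2 h alone its SE was 0.16 and its limma adjusted p 0.132. In that fit the 14 calls had adjusted p between 0.102 and 0.388, and none passed. At 1, 4 and 12 h the effects on cyp1a were 1.87, 3.78 and 9.02 (limma adjusted p = 0.0115, 1.42e-06 and 8.03e-13). The 2 h effect less the 1 h effect was -0.32 (SE 0.43) and did not pass (limma adjusted p = 0.974). Another probe set with the same leading identifier number, Dr.9478.2.S1_at, is assigned to mpx, a neutrophil peroxidase, in the platform annotation. That probe set read 7.80, 7.95 and 8.71 with vehicle and 9.38, 9.29 and 9.33 with TCDD (difference 1.18, SE 0.53, limma adjusted p = 0.941), while the other 3 mpx probe sets stayed between 2.23 and 2.87. Its gene assignment is therefore uncertain.

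The steepest of the 13 rises was in tiparp (Dr.5536.1.A1_at), a member of the poly(ADP-ribose) polymerase gene family. TCDD induces this gene, and its product restrains AHR in mammals. Vehicle arrays were tightly grouped at 5.70, 5.79 and 5.91, and TCDD arrays reached 7.96, 8.53 and 8.40. The difference was 2.50 (SE 0.40, 5.65-fold, limma adjusted p = 0.0101), but the call ended without vehicle replicate 1, vehicle replicate 2 or TCDD replicate 3 (adjusted p between 0.0521 and 0.0584). Transcripts of the receptor itself, ahr2, read 8.56, 8.33 and 8.24 with vehicle and 8.98, 9.08 and 9.05 with TCDD, again without overlap. That difference, 0.66 (SE 0.25), did not pass (limma adjusted p = 0.762).

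**Figure D2:**
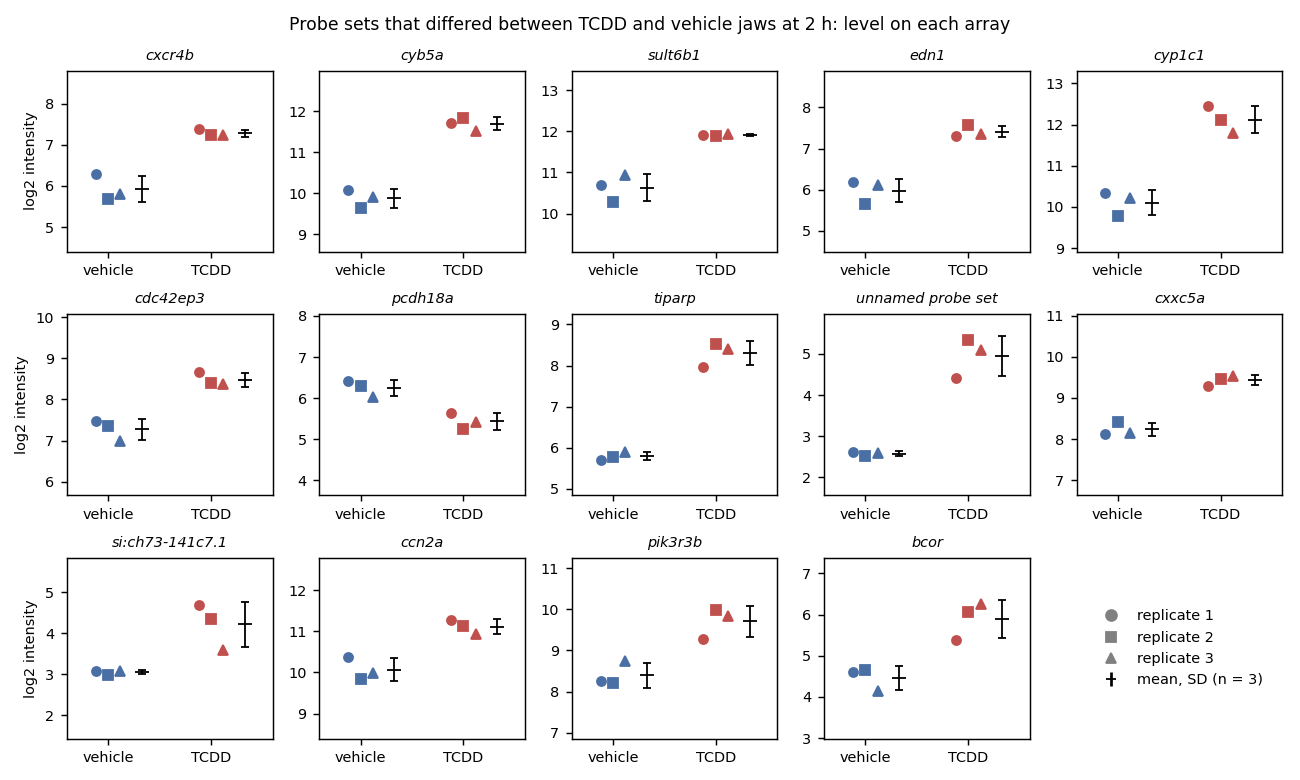
Log2 intensity of the 14 called probe sets on each vehicle (blue) and TCDD (red) array at 2 h; symbols mark replicates 1, 2 and 3, and black bars give mean and SD (n = 3). In every panel the groups are apart, with cyp1c1 going from a mean of 10.10 to 12.12 and tiparp from 5.80 to 8.30.

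Genes of intercellular signalling formed the next group. Endothelin 1 (edn1, Dr.4076.1.S1_at), a secreted peptide that patterns the ventral jaw cartilages in zebrafish, read 6.17, 5.65 and 6.11 with vehicle and 7.31, 7.56 and 7.35 with TCDD. All TCDD arrays were above all vehicle arrays, and the difference was 1.43 (SE 0.20, 2.69-fold, limma adjusted p = 0.00428). The chemokine receptor gene cxcr4b (Dr.6798.1.S1_at), whose product steers migrating cells toward Cxcl12 in zebrafish, read 6.30, 5.69 and 5.79 with vehicle. With TCDD it read 7.37, 7.23 and 7.22, which gave the smallest p of the comparison (difference 1.35, SE 0.16, 2.55-fold, limma adjusted p = 0.00105). Without vehicle replicate 1, the highest of the vehicle arrays, this difference was 1.53.

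Of the other signalling genes, ccn2a (Dr.10431.1.S1_at), which encodes a matrix-associated growth factor modulator also called connective tissue growth factor, read 10.37, 9.83 and 10.00 with vehicle and 11.28, 11.13 and 10.93 with TCDD. The difference was 1.05 (SE 0.18, limma adjusted p = 0.0248), the smallest of the 13 rises, and it no longer passed without vehicle replicate 2 or 3 or TCDD replicate 1 or 2 (adjusted p between 0.0755 and 0.148). A regulatory subunit of phosphoinositide 3-kinase, pik3r3b (Dr.5428.2.A1_at), read 8.25, 8.20 and 8.75 with vehicle and 9.29, 9.99 and 9.84 with TCDD. Here the difference was 1.30 (SE 0.23, limma adjusted p = 0.0275), and leaving out vehicle replicate 1 or 2 or TCDD replicate 2 or 3 ended the call (adjusted p between 0.121 and 0.148). The other pik3r3b probe set, Dr.24191.1.S1_at, lay near background in vehicle at 2.11 to 2.24 and at 2.37 to 3.01 with TCDD. A probe set with the same leading identifier number as the called one, Dr.5428.1.S1_at, is assigned to another gene, id2a. It read 9.93 to 10.01 with vehicle and 9.77 to 10.02 with TCDD (difference -0.07, SE 0.12). The assignment of Dr.5428.2.A1_at to pik3r3b is therefore uncertain and was not tested.

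Regulators of transcription and cell shape made up the rest of the named rises. A mammalian partner of the repressor BCL6 is encoded by bcor (Dr.16163.1.S1_at), which read 4.60, 4.66 and 4.14 with vehicle and 5.38, 6.06 and 6.25 with TCDD. Its difference of 1.43 (SE 0.27) was the closest to the threshold among the calls (limma adjusted p = 0.0471) and passed only without TCDD replicate 1 among the refits that left out 1 of the 6 arrays (adjusted p between 0.079 and 0.18 without any other of them). Quantile normalization also ended this call (adjusted p = 0.382). The zinc finger gene cxxc5a (Dr.18724.1.A1_at), whose mammalian counterpart restrains Wnt signalling, read 8.12, 8.43 and 8.16 with vehicle and 9.30, 9.47 and 9.54 with TCDD. It differed by 1.20 (SE 0.19, limma adjusted p = 0.0103), although not without vehicle replicate 1 or TCDD replicate 3 (adjusted p = 0.0549 to 0.0623). For cdc42ep3 (Dr.1816.1.A1_at), an effector of the cytoskeletal switch Cdc42, values of 7.47, 7.36 and 6.98 with vehicle stood against 8.66, 8.39 and 8.36 with TCDD (difference 1.20, SE 0.18, limma adjusted p = 0.00766).

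A pair of called probe sets started close to background. The unnamed DrAffx.2.29.S1_at read 2.62, 2.52 and 2.60 with vehicle, near the reporter range, and 4.41, 5.35 and 5.10 with TCDD. Its difference was 2.37 (SE 0.38, limma adjusted p = 0.0101), which shrank to 1.11 with an offset of 16 added before the log (adjusted p = 0.136) and ended without vehicle replicate 2 or TCDD replicate 2 or 3 (adjusted p = 0.0542 to 0.0584). The partner probe set DrAffx.2.29.A1_at stayed between 2.86 and 3.06 on all 6 arrays. Similarly, si:ch73-141c7.1 (Dr.11351.1.A1_at) read 3.09, 2.99 and 3.09 with vehicle and 4.68, 4.35 and 3.60 with TCDD (difference 1.15, SE 0.19, limma adjusted p = 0.0169). It was 0.52 with the offset (adjusted p = 0.0282) and 0.87 after quantile normalization (adjusted p = 0.113), and vehicle replicates 1 and 2 and TCDD replicates 1 and 2 each ended the call when left out (adjusted p between 0.0623 and 0.0817).

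The 1 probe set that fell, Dr.16880.1.S1_at of pcdh18a, represents a protocadherin, a cell adhesion protein of the cadherin superfamily. Vehicle arrays read 6.41, 6.30 and 6.02 and TCDD arrays 5.65, 5.24 and 5.43, without overlap. Its log2 change was -0.80 (SE 0.13, 1.75-fold lower, limma adjusted p = 0.0101), and the call ended without vehicle replicate 1, vehicle replicate 2 or TCDD replicate 2 (adjusted p between 0.0523 and 0.0623). The other pcdh18a probe set, Dr.19441.1.A1_at, lay at background (1.98 to 2.06).

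Among the probe sets that did not pass, the rises of smallest p were cyp1a, the unnamed Dr.22729.1.A1_at (difference 0.94), myog (2.15-fold), the unnamed Dr.16132.1.A1_at (0.73) and the unnamed Dr.5410.1.A1_at (1.11), with limma adjusted p between 0.0701 and 0.104. Myogenin, encoded by myog, is a muscle transcription factor, and its values of 5.09, 5.59 and 5.44 with vehicle stood against 6.24, 6.54 and 6.65 with TCDD. On the lower side the smallest p values belonged to abcb5, a membrane transporter (-1.68), mycn, a growth-promoting transcription factor (-0.92), eomesa, a T-box transcription factor (-1.61), kdm4b, a histone demethylase (-0.53), and ccnd1, the G1 cyclin D1 (-0.88), with limma adjusted p between 0.0701 and 0.155. For abcb5 the vehicle arrays read 6.19, 5.17 and 5.75 and the TCDD arrays 4.06, 4.04 and 3.96. These 10 probe sets all had groups that did not overlap, as had 11.5% of all probe sets, and none passed in the main fit. All 10 passed with array weights (limma adjusted p between 0.000524 and 0.0159), a fit that called 148 probe sets.

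The rises at 2 h were then read at the other times, where TCDD and vehicle arrays are separate samples. All 13 had estimates above 0 at 1 h and at 4 h and 12 of 13 at 12 h, compared with 46.8%, 47.6% and 35.8% of all probe sets. As rises that passed on their own, the counts among the 13 were 7 at 1 h (background 0.103%), 10 at 4 h (background 0.323%) and 8 at 12 h (background 0.387%). The spread estimate of a probe set is shared by all times, so these counts are not independent of each other or of the choice of the 13 by their p at 2 h. That choice favours probe sets of small spread, and the background shares are not matched for spread. The genes cyp1c1, sult6b1, cyb5a and edn1 were called at every time, and cdc42ep3 and si:ch73-141c7.1 at 2 h alone. The effects of the last 2 at 1 h were 0.79 and 0.37. Their differences from the 2 h effect did not pass (limma adjusted p = 0.838 and 0.557), so a response limited to 2 h was not shown. The probe set of pcdh18a, called lower at 2 h, had estimates of -0.32, -0.20 and -0.32 at 1, 4 and 12 h, none of which passed in limma.

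**Figure D3:**
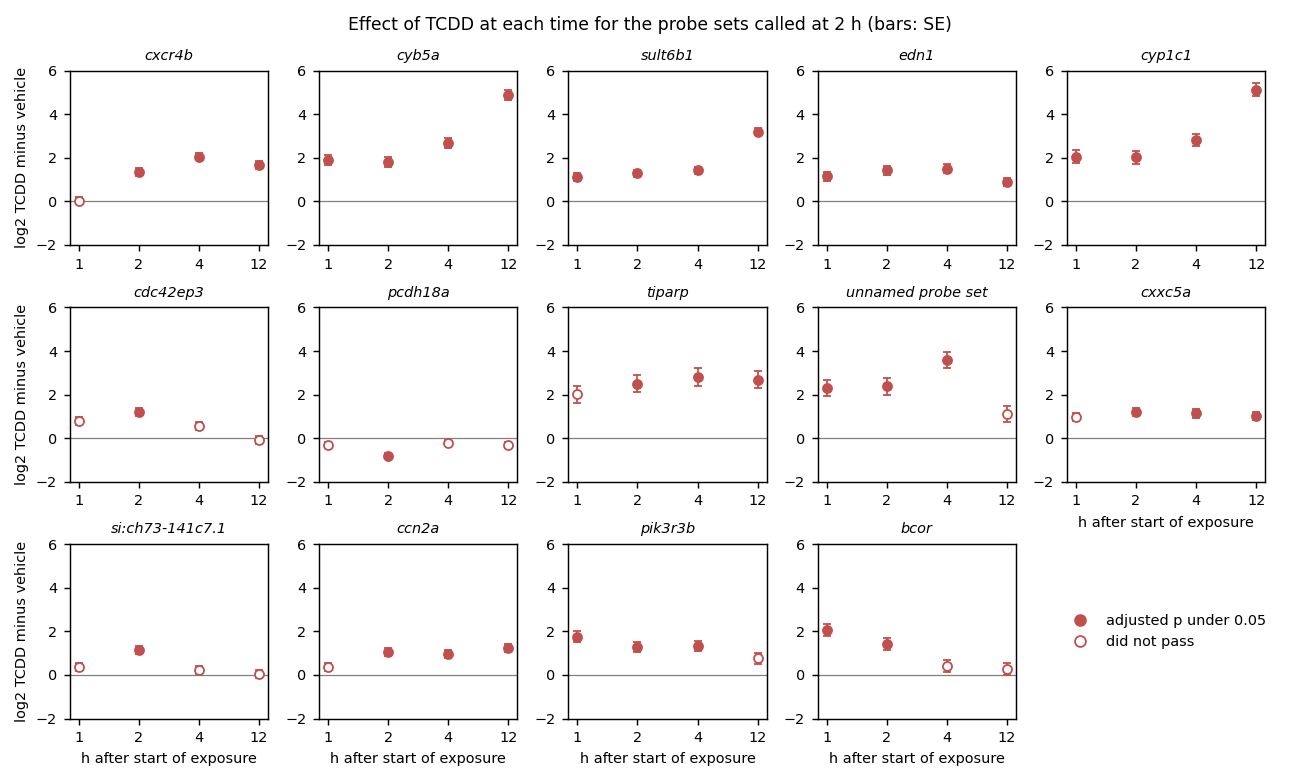
Log2 difference between TCDD and vehicle (vertical axis, bars show SE) at 1, 2, 4 and 12 h after the start of exposure for the 14 probe sets called at 2 h; filled points passed the adjusted p threshold. cyp1c1, sult6b1 and cyb5a are highest at 12 h, whereas bcor has 2.08 at 1 h, 1.43 at 2 h and 0.26 at 12 h.

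Whether the effect at 2 h differed from that at another time was tested directly. Against 1 h no probe set passed in limma (1108 at an unadjusted p under 0.05), and against 4 h none passed (560 at an unadjusted p under 0.05). Among the 14 calls, the smallest p in the comparison with 1 h belonged to cxcr4b, whose TCDD effect was 0.03 at 1 h and 1.35 at 2 h. That difference of 1.32 (SE 0.23) did not pass over all 24 arrays (limma adjusted p = 0.289) but did without vehicle replicate 1 of 2 h (1.50, adjusted p = 0.0278). Without vehicle replicate 3, TCDD replicate 2 or TCDD replicate 3 of 2 h, 1 other probe set passed against 1 h (rlim, si:ch211-248a14.8 and aldoca, respectively). Against 4 h, sox9b, hsp70.3, ndufaf6, si:ch211-248a14.8 and aldoca passed in some alternative fits. For hsp70.3 these gave differences of -2.59 to -2.30 (limma adjusted p between 0.0161 and 0.0337).

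Against 12 h, 15 probe sets passed (0.0968% of all), 8 with a higher and 7 with a lower value of the 2 h effect. Among the 2 h calls these were cyp1c1, cyb5a and sult6b1. The 2 h effect of cyp1c1 was 3.11 smaller than its 12 h effect of 5.13 (log2 difference -3.11, SE 0.41, limma adjusted p = 0.00107). For cyb5a the effects were 1.81 and 4.89 (difference -3.08, SE 0.31, limma adjusted p = 4.14e-05), and for sult6b1 they were 1.29 and 3.20 (difference -1.91, SE 0.24, limma adjusted p = 0.000912). Among the named probe sets the difference was largest for cyp1a, at -7.47 (SE 0.43, limma adjusted p = 1.08e-08). Its effects were 1.55 at 2 h, where vehicle arrays averaged 12.23, and 9.02 at 12 h. The part of the vehicle level at each time in this difference was not tested. For tiparp the effects were 2.01, 2.50, 2.81 and 2.69 at 1, 2, 4 and 12 h, and the 2 h minus 12 h difference of -0.19 (SE 0.56) did not pass (limma adjusted p = 0.983). For bcor the effect was 1.17 larger at 2 h than at 12 h (SE 0.38), and for cdc42ep3 1.28 larger (SE 0.26), without passing (limma adjusted p = 0.737 and 0.0843). The count of 15 was 9 without vehicle replicate 1 and 8 without vehicle replicate 3 of 2 h, and 8, 6 and 4 without replicate 1, 2 or 3 in every group.

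The list of AHR pathway and target genes, like the other lists, was chosen with earlier results of these data known. It had 12 genes on the array, covered by 15 probe sets. Of these probe sets, 3 rose (cyp1c1, sult6b1 and tiparp) and none fell, against 0.0839% and 0.00645% of all probe sets. The list median was 0.36 against 0.02 over all probe sets, and the 6 thyroid and liver probe sets had a larger one, 0.87. Without overlap, 7 of the 15 were higher with TCDD and 1 was lower, against 4.69% and 6.82% of all probe sets. The lower one was ptgs2a, a prostaglandin synthase, with values of 5.57, 4.65 and 4.86 with vehicle and 4.32, 4.05 and 4.38 with TCDD (difference -0.78, SE 0.35, limma adjusted p = 0.941). The oxidoreductase gene nqo1, an AHR and NRF2 target in mammals, read 11.35 to 11.86 with vehicle and 11.49 to 11.85 with TCDD. Probe sets of ahr1a, arnt2 and cyp1d1 lay between 2.01 and 2.75 on all 6 arrays, near background.

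**Figure D4:**
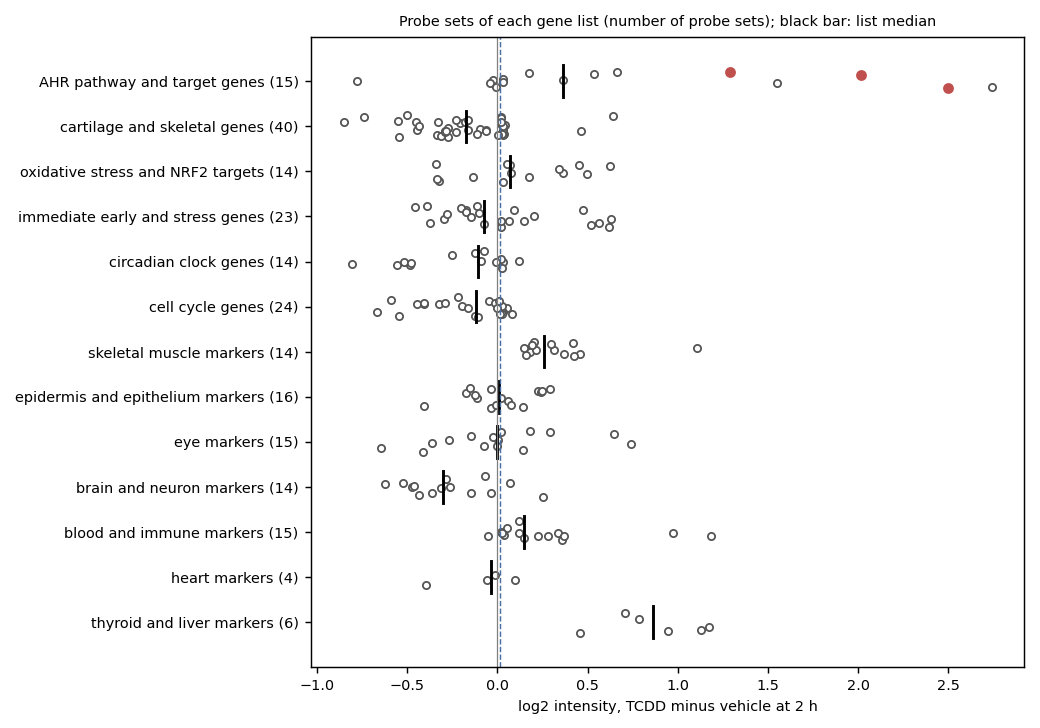
Log2 difference between TCDD and vehicle at 2 h (horizontal axis) for each probe set of 13 gene lists; red points passed the adjusted p threshold, black bars are list medians and the dashed line is the median of all probe sets (0.02). The AHR list holds the 3 red points and has a median of 0.36, while the cartilage list has a median of -0.17. The largest median, 0.87, is that of the 6 thyroid and liver probe sets.

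None of the 40 probe sets of 28 cartilage and skeletal genes passed, and their median was -0.17, with 26 estimates below 0 against 43.2% of all probe sets. For sox9b, the cartilage transcription factor gene in the title of the series, probe set Dr.11850.1.S2_at read 6.87, 6.80 and 6.63 with vehicle and 6.30, 5.95 and 6.40 with TCDD. The log2 difference was -0.55 (SE 0.20, 95% confidence interval -0.97 to -0.13) with no overlap between groups, and it did not pass (limma adjusted p = 0.713). At 4 and 12 h the effect on the same probe set was -2.35 and -3.77, and the 2 h effect differed from that at 12 h by 3.23 (SE 0.28, limma adjusted p = 6.3e-06). The difference from 4 h, 1.80, gave a limma adjusted p of 0.0585, and it passed in 5 alternative fits, at 0.029 without TCDD replicate 2 of 2 h and between 0.00752 and 0.0306 in 4 fits over all arrays. The second sox9b probe set lay at background (2.14 to 2.25).

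Further cartilage genes are given as examples chosen after their values were seen. Type II collagen, the main collagen of cartilage, is encoded by col2a1a, which read 13.65, 13.71 and 13.30 with vehicle and 12.83, 13.25 and 12.95 with TCDD. It did not overlap between groups, with a difference of -0.55 (SE 0.18) that did not pass (limma adjusted p = 0.584). The transcription factor gene dlx2a read 7.67, 7.66 and 7.64 with vehicle and 6.93, 7.43 and 7.27 with TCDD (difference -0.45, SE 0.18, limma adjusted p = 0.828). The cartilage link protein gene hapln1a, which ties aggrecan to hyaluronan, had the lowest estimate of the list, -0.85 (SE 0.52), with 10.23, 10.19 and 9.90 against 9.09, 9.48 and 9.19. Its other probe sets had estimates between -0.31 and 0.03, all with overlap. In the other direction, dlx3b (0.64, SE 0.53) and runx3 (0.47, SE 0.21), both transcription factor genes, were higher without overlap, and none of these passed. In all, 7 of the 40 probe sets were lower and 2 higher without overlap, against 6.82% and 4.69% of all probe sets.

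No probe set of the remaining lists passed, and the genes named from them were chosen after their values were seen. The 14 probe sets of NRF2 targets and oxidative stress genes had a median of 0.07, with prdx1, a peroxiredoxin, at 7.79, 7.45 and 7.97 with vehicle and 8.46, 8.28 and 8.36 with TCDD. Without overlap, 2 of these 14 were higher and 1 lower, against 4.69% and 6.82% of all probe sets. Immediate early and stress genes had a median of -0.08 over 23 probe sets, and the small heat shock protein gene hspb1 went from 6.59, 6.26 and 6.78 to 7.38, 7.01 and 7.12. This was the 1 probe set of the 23 that was higher without overlap, while 2 were lower, against 4.69% and 6.82% of all probe sets. Of the 23 estimates 12 lay below 0, against 43.2% of all probe sets. Of the 14 probe sets of circadian clock genes, 4 were lower without overlap and none higher, against 6.82% and 4.69% of all probe sets (median -0.11). Among 24 probe sets of cell cycle genes the median was -0.12, and 8 estimates lay above 0 (56.8% of all probe sets). Of the 24, 6 were lower without overlap (6.82% of all probe sets). The 6 comprised ccna2, which encodes cyclin A, and mcm2, mcm3, mcm4, mcm6 and mcm7, subunits of the replicative helicase. The value of mcm4 was 7.65, 7.97 and 7.81 with vehicle and 6.84, 7.53 and 7.08 with TCDD (difference -0.66, SE 0.26, limma adjusted p = 0.796).

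Markers of other tissues varied between single arrays. Summed intensity over the 6 thyroid and liver probe sets was 74.0 to 1255 with vehicle and 131 to 3510 with TCDD, highest on TCDD replicate 3 and vehicle replicate 1. All 6 had estimates above 0 (median 0.87), against 56.8% of all probe sets. None of the 6 was without overlap between groups, against 11.5% of all probe sets. On TCDD replicate 3 the liver fatty acid binding protein gene fabp10a read 8.64, against 3.10 to 5.79 on the other 5 arrays. The 4 heart probe sets summed to 239 to 1901 with vehicle and 155 to 1556 with TCDD, highest on replicate 1 of each group, and the 15 eye probe sets to 599 to 1668 and 307 to 5015, highest on TCDD replicate 1. For skeletal muscle all 14 probe sets had estimates above 0 (56.8% of all probe sets did), with a median of 0.26 that includes myog, and they summed to 23716 to 41161 with vehicle and 33117 to 40396 with TCDD. The 40 cartilage and skeletal probe sets summed to 56028 to 69466 with vehicle and 46141 to 53958 with TCDD, which did not overlap. Of 14 brain probe sets 12 had estimates below 0 (median -0.30), against 43.2% of all probe sets. The brain sums of 4767 to 7321 with vehicle and 4830 to 5941 with TCDD overlapped. Of 15 blood and immune probe sets 14 had estimates above 0 (median 0.15), against 56.8% of all probe sets. They summed to 9403 to 12131 with vehicle and 12316 to 15717 with TCDD. These sums include the doubtful mpx probe set Dr.9478.2.S1_at, and without it they overlapped, at 9155 to 11711 with vehicle and 11671 to 15049 with TCDD. Over the 16 epidermis and epithelium probe sets the median was 0.01, with a sign that turned under quantile normalization. The part of these tissues in the results was not tested, beyond a fit chosen after seeing the data that left out vehicle replicate 1 and TCDD replicate 3 of 2 h, the arrays of highest liver signal: it called 13 probe sets, 8 of them among the 14.

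**Figure D5:**
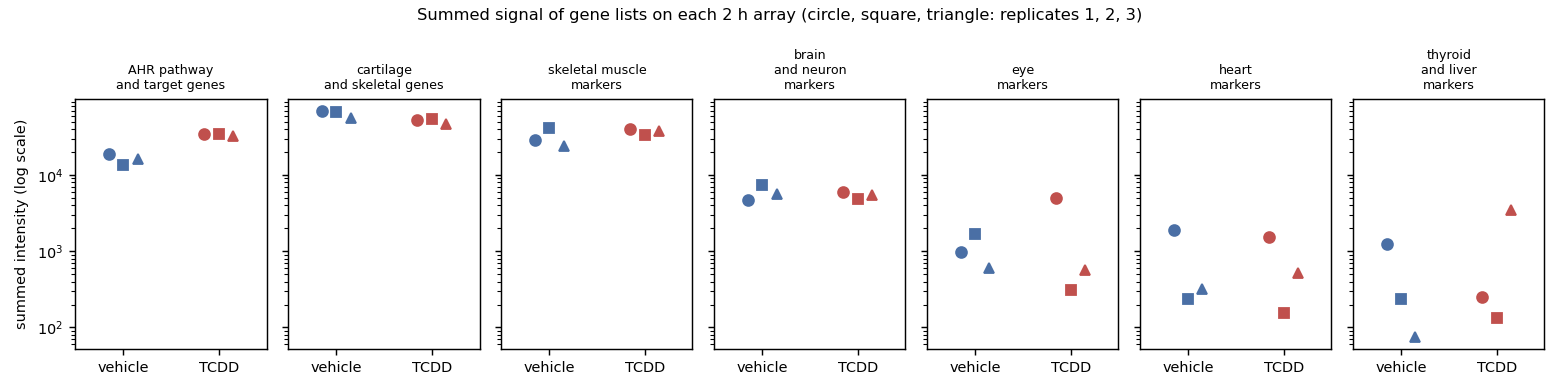
Summed intensity (vertical axis, log scale) of 7 gene lists on each 2 h array, vehicle in blue and TCDD in red, with replicates 1, 2 and 3 as circle, square and triangle. The AHR list is apart between groups (13700 to 18703 against 32123 to 34711), and liver signal is highest on TCDD replicate 3 (3510). Sums of linear intensities weigh abundant probe sets most, such as cyp1a in the AHR list (mean log2 12.23 with vehicle and 13.78 with TCDD), which did not pass. A sum apart between groups is thus not a result about every member of a list.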

How the data were processed

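RNA pooled from 10 jaws per array was labelled with the One-Cycle kit and hybridised to Affymetrix Zebrafish arrays, per the labels' protocols. The deposited values are linear intensities, 1 per probe set; RMA and GCRMA appear, per the submitters' processing notes, without role, order or version. The genome build is not given in the sources used here. Array medians differed between times (from 13.9 to 15.1 at 12 h up to 33.4 to 34.9 at 2 h), so levels were compared only within a time.

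Values were taken to log2 without an offset. The 115 array control probe sets were left out of 15617, and no filter on low values was applied to the 15502 tested. A model of 8 group means over 24 arrays was fitted in limma 3.58.1 (lmFit, eBayes; R 4.3.3), with Benjamini-Hochberg adjustment over all probe sets and a threshold of 0.05; differences between times were contrasts of the same model. The procedure was tested on simulated data with independent noise for each probe set and array. Such data hold no deviations shared by the probe sets of an array, so the test cannot address how calls change when arrays are left out. A platform annotation table gave 10795 tested probe sets 1 gene symbol, 135 several and 4572 none; 10711 were found by gene ID in a RefSeq gene table, which changed 1 symbol. Annotation can be old, and several probe sets of a gene were kept apart.

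The named genes are every probe set called at 2 h or at all 4 times, the 5 rises and 5 falls of smallest p that did not pass, sox9b, members of the gene lists, of which some were named after their values were seen, as stated there, and probe sets that share a gene or identifier number with a named one. Members, gene lists and tests were chosen with earlier results of these data known. Arrays of a group come from separate time course experiments, per the series' design text, and p-values measure the spread between such pools of jaws. At 2 h, vehicle and TCDD arrays of the same replicate number had deviations from their group means correlating at 0.17, -0.11 and -0.11. Pairs of different number correlated at -0.22 to 0.31. So few arrays cannot show or exclude that a number marks a shared time course, and the main fit did not treat the samples as paired. Alternatives were a replicate block, quantile normalization, a level filter, trend and robust eBayes, array weights (statmod 1.5.0), an offset of 16, the 2 h arrays alone, and leaving out arrays.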

Additional observations from a re-analysis of the deposited data

Results flagged for a closer look

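The TCDD effect differed between 2 h and 12 h, by the contrast of both effects in limma, for 7 probe sets named in the results. Subtracting the 12 h effect from the 2 h effect gave, in log2, -3.08 for cyb5a (limma adjusted p = 4.14e-05), -1.91 for sult6b1 (limma adjusted p = 0.000912), -3.11 for cyp1c1 (limma adjusted p = 0.00107) and -7.47 for cyp1a (limma adjusted p = 1.08e-08). The unnamed Dr.5410.1.A1_at gave -2.54 (limma adjusted p = 0.00107), and Dr.9478.2.S1_at, assigned to mpx, gave -4.59 (limma adjusted p = 0.0134). In the other direction, sox9b gave 3.23 (limma adjusted p = 6.3e-06), with effects of -0.55 at 2 h and -3.77 at 12 h. Intensity scales differ between times, and the part of that, or of the vehicle level at each time, in these differences was not tested. No group has more than 3 arrays, so no formal outlier test was applied to single arrays.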

How the results depend on the processing

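The 14 calls at 2 h became 148 with array weights and 0 on the 6 arrays of 2 h alone (1274 at an unadjusted p under 0.05); leaving out 1 array, or 1 replicate number in every group, gave 1 to 20. With a replicate block the count was 17, with 13 of the 14 included (bcor at an adjusted p of 0.0637). The 4 others, which did not pass in the main fit, were Dr.22729.1.A1_at (0.0163), eomesa (0.0243), abcb5 (0.0399) and ccnd1 (0.043). With the number as a random block 12 passed, without pik3r3b (0.0559) and bcor (0.0597). Deviations of same-numbered vehicle and TCDD arrays at 2 h correlated at 0.17, -0.11 and -0.11, and those of different number at -0.22 to 0.31. With 3 arrays a group, these values cannot show or exclude that a number marks a shared time course. The main fit did not take the numbers to pair the samples. For the difference from 1 h, 0 became 2 without both 2 h arrays of high liver signal, and leaving out replicates gave 0 to 2. For the difference from 4 h, 0 became 2 above the median level, 2 with trend and robust eBayes, 1 with array weights, 3 with an offset of 16 and 1 without both liver arrays, and leaving out replicates gave 0 to 2. For the difference from 12 h, 15 became 86 with array weights, 8 with the offset and 13 with the block, and leaving out replicates gave 4 to 14. Among refits of 25 single named probe sets, 322 kept their side of the threshold, 30 came to pass, 92 no longer passed and 0 turned sign. All 92 were refits of the 14 calls, whereas the 322 include probe sets outside the 14 that again did not pass. The cause was not tested, except that leaving out arrays means fewer samples. With 3 arrays a group, probe sets whose levels stay near the reporter range of 1.94 to 2.36 in both groups carry little information on a difference, and the fold of a probe set near it in 1 group, such as DrAffx.2.29.S1_at, depends on the offset.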
